A study of Rattus norvegicus with 6 samples.

Results

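Beta-cell transcription factors are the DNA-binding proteins that set up and keep the identity of the insulin-producing cell and drive transcription of its hormone genes. The group described here holds 10 such genes (Pdx1, Mafa, Neurod1, Nkx6-1, Nkx2-2, Isl1, Pax6, Foxa2, Mnx1 and Rfx6), taken by their symbols from the 32900 features of the gene table. The rule uses symbols and no measured value, but the list was drawn up with earlier results of these data known. All 10 were found once in the table and all 10 passed the minimum for testing, so no member was lost to low counts. The question is whether these factors differed between lines with and without the genes of the Prader-Willi syndrome (PWS) domain.

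RNA came from the rat insulinoma line INS-1(832/13)::mCherry, a model of the beta cell that carries a human INS transgene and a mouse Ins2 transgene with mCherry, grown in 7.5 mM glucose without treatment. The 3 control lines (5-9, 2 and 16) have the PWS domain deleted on the silent maternal allele, and the 3 PWS lines (3, 19-1 and 19-4) have it deleted on both alleles, so a deletion of the maternal allele is common to all 6 lines. Each line is a clone with 1 library. Control lines 2 and 16 and the PWS lines were all isolated from line 5-9 after it was transfected again, and since 19-1 and 19-4 were both subcloned from line 19, only 2 independent deletions of the paternal allele are represented. The p-values measure the spread between such lines.

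Each value is a normalized count, meaning the reads of a gene divided by the size factor of its library, with reads that align to several places or lie on overlapping genes counted at each. The libraries held between 26016478 and 36084261 counted reads, and the 10 factors had between 145 and 10167 reads per line. At least 98% of the reads of 9 factors, and 80.3% of those of Rfx6, were still counted when reads with several alignments or on overlapping genes were left out. The labels were checked with Snurf, a gene of the deleted domain, with 3160 to 3992 normalized counts in the control and at most 3.64 in the PWS lines, and with Mkrn3, which had no read in any PWS line. No 2 lines of a group agreed within counting noise. All 6 were kept as separate samples, although this does not make the subclones 19-1 and 19-4 independent deletions. Of the 9 beta-cell markers found, 8 were present in all lines, among them Slc2a2 (the glucose transporter GLUT2) with 11498 to 14923 normalized counts, while Ucn3 had 1 read in PWS line 3 and 2 reads in PWS line 19-4. All 9 were tested and none differed at an adjusted p of 0.05 in limma, edgeR or DESeq2 (0.257%, 0.205% and 1.46% of all tested genes), while 3 did without adjustment in each (11.3%, 11.4% and 10.4%), namely Ins1, Ins2 and Iapp. Summed, the markers had 521846 to 593142 normalized counts in control and 281901 to 493282 in PWS lines. Without Ins1 and Iapp, the sum of the other 7 was 63767 to 67642 in control lines and 64783, 67287 and 50662 in PWS lines 3, 19-1 and 19-4, with line 19-4 alone outside the control range. The part of these sums in the levels of the factors was not tested. Of 19 markers of other cell types, 14 had at most 3 reads in every line, which is the limit that a count of 0 allows for counting error alone. Sst, the hormone of delta cells, and Ptprc, a marker of blood cells, had no read in any line.

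In the islet these factors work as a network. Pdx1, Isl1, Nkx6-1, Nkx2-2, Mnx1 and Pax6 have a homeodomain, which in many but not all such proteins binds short AT-rich letters such as those of the A boxes of the insulin promoter. Neurod1 is a basic helix-loop-helix protein that binds E boxes together with an E protein, Mafa is a basic leucine zipper protein that binds the C1 element, Foxa2 is a forkhead protein that opens chromatin, and Rfx6 is a winged-helix protein needed for the formation of islet endocrine cells. Many of them bind each other's genes as well as the insulin genes. The sequences below are the 250 bases before the annotated start of the rat Ins1 and Ins2 genes, shown because they are the best known sites of action of Pdx1, Mafa and Neurod1, and of Pdx1 and Nkx6-1, shown because Pdx1 heads the network and Nkx6-1 was among the factors that varied most between lines. They are from RefSeq, assembly GRCr8, written 5′ to 3′ on the strand of the gene. Capitals mark the core of an A box (TAAT on either strand) and the E box (CANNTG).
Ins1, chr1:261185869-261186118, plus strand: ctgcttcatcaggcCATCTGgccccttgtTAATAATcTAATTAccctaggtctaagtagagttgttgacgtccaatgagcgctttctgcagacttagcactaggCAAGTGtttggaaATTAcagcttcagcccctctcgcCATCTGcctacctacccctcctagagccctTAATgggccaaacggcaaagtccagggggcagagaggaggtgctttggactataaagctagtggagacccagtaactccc
Ins2, chr1:207273806-207274055, minus strand: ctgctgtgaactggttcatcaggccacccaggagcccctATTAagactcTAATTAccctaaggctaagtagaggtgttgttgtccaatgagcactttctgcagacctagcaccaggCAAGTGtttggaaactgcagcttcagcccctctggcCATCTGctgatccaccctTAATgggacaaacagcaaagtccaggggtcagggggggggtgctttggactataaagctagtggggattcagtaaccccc
Pdx1, chr12:12799157-12799406, minus strand: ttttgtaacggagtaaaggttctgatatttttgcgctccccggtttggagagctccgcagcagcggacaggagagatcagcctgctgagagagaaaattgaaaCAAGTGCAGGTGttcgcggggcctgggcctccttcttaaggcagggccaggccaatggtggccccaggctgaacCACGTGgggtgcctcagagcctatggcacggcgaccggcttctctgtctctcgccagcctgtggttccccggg
Nkx6-1, chr14:8273988-8274237, plus strand: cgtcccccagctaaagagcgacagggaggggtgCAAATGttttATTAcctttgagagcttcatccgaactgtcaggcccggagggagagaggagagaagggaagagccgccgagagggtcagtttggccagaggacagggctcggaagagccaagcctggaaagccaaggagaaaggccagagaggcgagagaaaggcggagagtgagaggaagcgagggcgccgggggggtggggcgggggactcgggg

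In the Ins1 sequence the letters TAAT occurred 6 times on either strand, in 4 separate stretches, and in the Ins2 sequence 4 times in 3 stretches. At least 1 match was found in 57.0% of the 33469 promoters of the same length, and at least 6 in 3.34% of them. The E box occurred 3 times in Ins1 and 2 times in Ins2, where 65.5% of all promoters held at least 1 and 11.5% held at least 3. Both insulin genes had TAAT at bases -80 to -77, and the E box at bases -110 to -105 of Ins1 had the same 6 letters as the E box at -98 to -93 of Ins2. In the Pdx1 sequence there were 3 E boxes and no TAAT, and in the Nkx6-1 sequence 1 of each. Promoter sequences were matched for 8 of the 10 factors (those of Mafa and Rfx6 were not used here). Of these 8, 4 held an E box and 5 held TAAT, and the Pax6 window held neither. The letters TGCTGA, one side of a Maf recognition element, occurred on either strand once in Ins2 and once in Neurod1, in both of which they overlap an E box, and once in Pdx1, against 15.1% of all promoters. The forkhead letters TGTTTAC were in none of the 4 windows, against 3.21% of all promoters. A match is a run of letters and not a shown binding site, and a missing match says nothing of the factor.

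**Figure D1:**
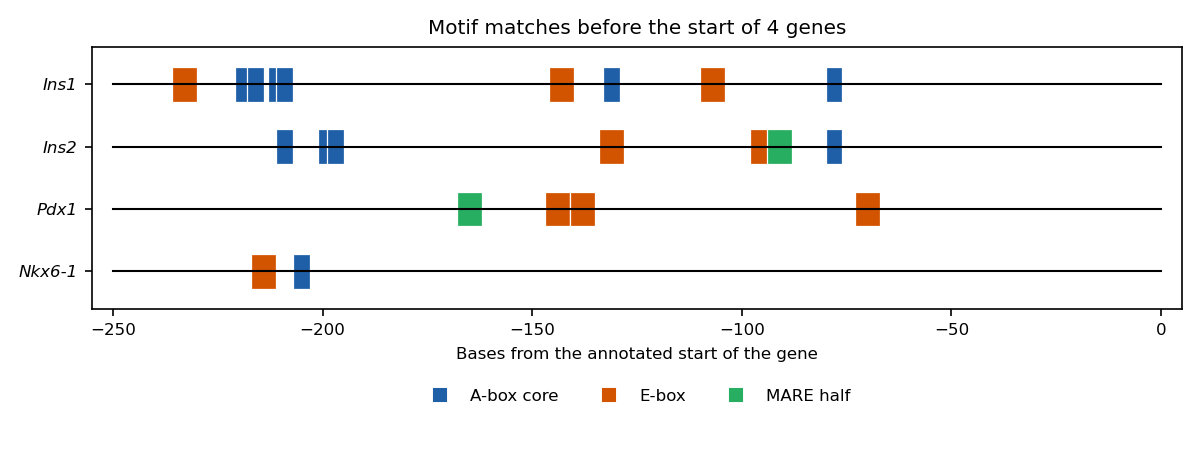
Positions of motif matches on either strand in the 250 bases before the annotated start of 4 genes (x axis, bases from the start; 1 row per gene). Blue boxes are A-box cores, orange boxes E boxes and green boxes one side of a Maf recognition element. Ins1 and Ins2 share an A-box core 80 bases before the start.

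None of the 10 factors differed between PWS and control lines at an adjusted p of 0.05 in limma, where 40 of the 15579 tested genes (0.257%) did. Their log2 fold changes (PWS minus control) lay between -0.19 for Pax6 and 0.16 for Rfx6, with 5 above and 5 below 0 (49.3% and 50.7% of all tested genes) and a median of -0.03. Over all tested genes the median was -0.0028. Without regard to sign the median was 0.10 for the factors and 0.12 for all tested genes. It was also 0.10 for tested genes with a mean of 100 normalized counts or more, as every factor had. Also none of the 10 had an unadjusted p under 0.05 in limma, against 11.3% of all tested genes (6% higher and 5.35% lower), or in edgeR (11.4%). At an adjusted p of 0.05, edgeR called 0 of the 10 (0.205% of all genes) and DESeq2 0 (1.46%), and DESeq2 called 1 without adjustment (10.4%), which was Pax6. At an adjusted p of 0.1 the count of factors was still 0 in limma, edgeR and DESeq2, against 0.282%, 0.257% and 2.37% of all genes. In 1 of the 10, again Pax6, every PWS value was below every control value; this held for 9.01% of all tested genes, the opposite for 8.43%, and either for 17.4%. In RNA from a whole culture, fewer cells that express a gene and less RNA per cell cannot be told apart. A p above the threshold does not show equal levels, so the 95% interval of each difference is given with it below.

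**Figure D2:**
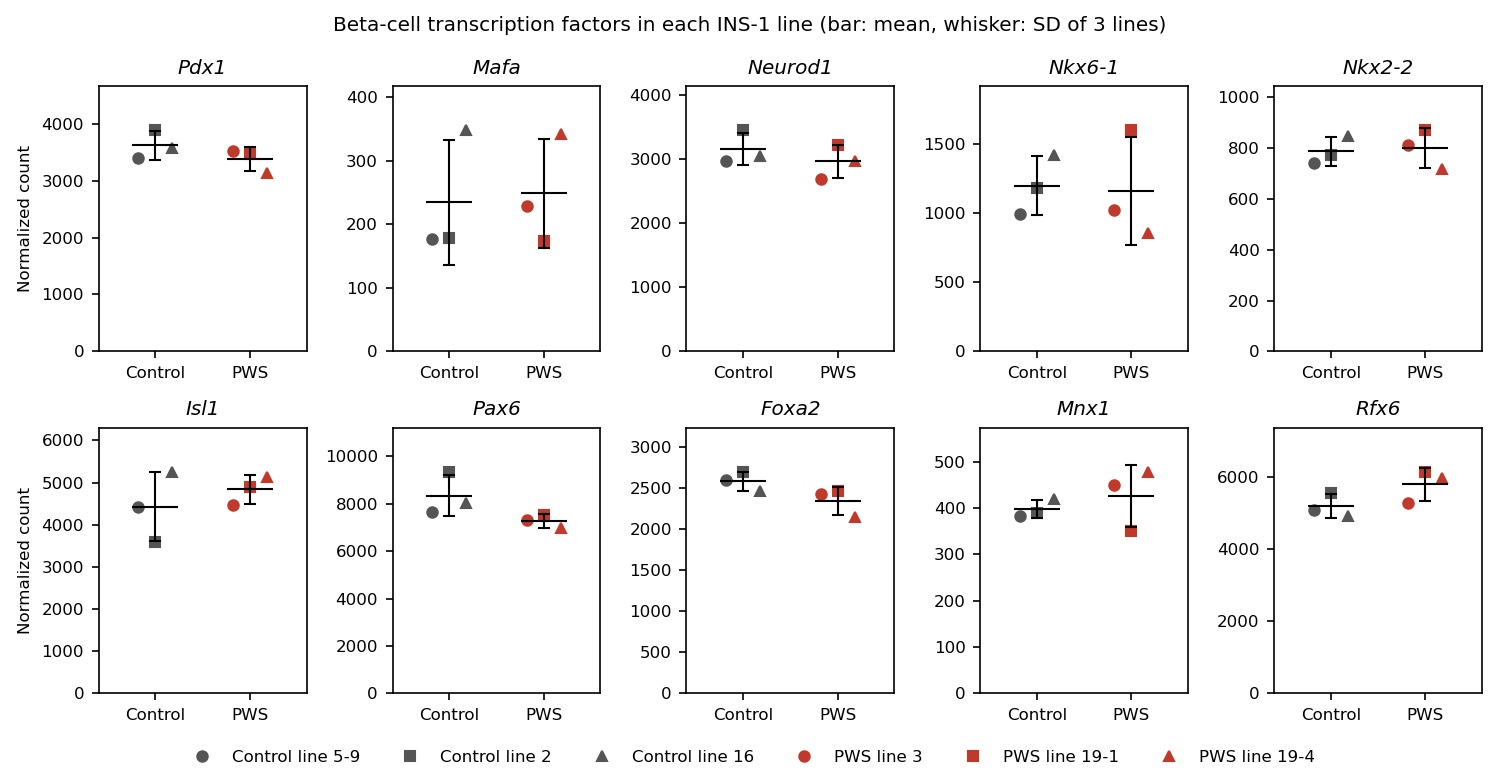
Normalized counts (y axis, from 0) of the 10 transcription factors in the 3 control lines (grey) and 3 PWS lines (red), 1 point per line, with the mean and SD of each group. The groups overlap for every factor but Pax6, and the points of Mafa are spread over almost 2-fold in each group (1.97-fold among control lines, 1.98-fold among PWS lines).

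Pdx1 (ENSRNOG00000046458), needed to form the pancreas and an activator of insulin transcription in the adult cell, had normalized counts of 3390, 3885 and 3577 in control lines 5-9, 2 and 16, and 3524, 3465 and 3134 in PWS lines 3, 19-1 and 19-4. The lowest line was 19-4 and the highest was control line 2, and PWS lines 3 and 19-1 lay among the control lines. Pdx1 thus differed by -0.10 on the log2 scale (SE 0.08, limma adjusted p = 0.671), with an interval from 0.824- to 1.06-fold of the control level. This was among the narrowest intervals of the group.

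Neurod1 (ENSRNOG00000005609), a basic helix-loop-helix activator of insulin transcription, had normalized counts of 2977, 3454 and 3054 in control lines 5-9, 2 and 16, and 2700, 3219 and 2981 in PWS lines 3, 19-1 and 19-4. Control line 2 was highest and PWS line 3 lowest, and the 4 other lines lay between 2977 and 3219. Between the groups it differed by -0.09 on the log2 scale (SE 0.09, limma adjusted p = 0.742), with an interval from 0.814- to 1.08-fold.

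Mafa (ENSRNOG00000007668), the leucine zipper factor that marks mature beta cells, had normalized counts of 177, 179 and 348 in control lines 5-9, 2 and 16. In PWS lines 3, 19-1 and 19-4 it had 230, 173 and 343. Each group thus held 1 line with a high level (16 and 19-4) and a pair of lower ones, and the ranges nearly coincided. The group means were 235 ± 98.4 (SD, n = 3) and 249 ± 86.3 (SD, n = 3), a log2 difference of 0.10 (SE 0.32, limma adjusted p = 0.933). The interval, from 0.651- to 1.77-fold, was the widest of the 10, so a moderate change of Mafa in either direction was not detectable with these lines.

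Nkx6-1 (ENSRNOG00000002149), a homeodomain repressor of other islet fates that is also needed for insulin secretion, had normalized counts of 996, 1183 and 1415 in control lines 5-9, 2 and 16. In PWS lines 3, 19-1 and 19-4 it had 1025, 1598 and 854. The highest and the lowest of the 6 lines were both PWS lines, 19-1 and 19-4, which are subclones of the same line. The groups differed by -0.08 on the log2 scale (SE 0.22, limma adjusted p = 0.921), with an interval from 0.663- to 1.34-fold.

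Nkx2-2 (ENSRNOG00000012728), a homeodomain factor that keeps beta cells from taking other endocrine fates, had normalized counts of 741, 772 and 849 in control lines 5-9, 2 and 16, and 813, 871 and 717 in PWS lines 3, 19-1 and 19-4. The control range lay inside the PWS range. The difference for Nkx2-2 was 0.02 on the log2 scale (SE 0.10, limma adjusted p = 0.957), with an interval from 0.868- to 1.19-fold.

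Isl1 (ENSRNOG00000012556), a LIM homeodomain factor that acts with the adaptor Ldb1, had normalized counts of 4433, 3603 and 5246 in control lines 5-9, 2 and 16, and 4479, 4901 and 5144 in PWS lines 3, 19-1 and 19-4. All PWS values lay inside the range of the control lines, which was set by the low value of line 2 and the high value of line 16. For Isl1 the log2 difference was 0.14 (SE 0.13, limma adjusted p = 0.718), with an interval from 0.899- to 1.36-fold.

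Pax6 (ENSRNOG00000004410), a paired-box and homeodomain factor that activates hormone genes and genes of prohormone processing, had normalized counts of 7663, 9333 and 8035 in control lines 5-9, 2 and 16. In PWS lines 3, 19-1 and 19-4 it had 7311, 7544 and 6965. Every PWS line was below every control line, but the gap between control line 5-9 and PWS line 19-1 was smaller than the spread within either group. Pax6 differed by -0.19 on the log2 scale (SE 0.09, limma adjusted p = 0.449), with an interval from 0.763- to 1.00-fold. The adjusted p was 0.457 in DESeq2 and 0.468 in edgeR.

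Foxa2 (ENSRNOG00000013133), the forkhead factor that acts upstream of Pdx1, had normalized counts of 2592, 2688 and 2456 in control lines 5-9, 2 and 16, and 2421, 2461 and 2144 in PWS lines 3, 19-1 and 19-4. PWS line 19-1 and control line 16 were nearly level, and line 19-4 was the lowest of the 6. For Foxa2 the log2 difference was -0.14 (SE 0.08, limma adjusted p = 0.535), with an interval from 0.803- to 1.03-fold.

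Mnx1 (ENSRNOG00000046959), a homeodomain factor of early beta-cell specification, had normalized counts of 383, 390 and 419 in control lines 5-9, 2 and 16, and 450, 350 and 477 in PWS lines 3, 19-1 and 19-4. The 3 control lines lay close together and inside the wider range of the PWS lines. Mnx1 differed by 0.09 on the log2 scale (SE 0.13, limma adjusted p = 0.841), with an interval from 0.866- to 1.31-fold.

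Rfx6 (ENSRNOG00000027949), which is required for islet development and for genes of calcium entry and insulin release, had normalized counts of 5093, 5559 and 4916 in control lines 5-9, 2 and 16, and 5275, 6137 and 5984 in PWS lines 3, 19-1 and 19-4. The subclones of line 19 were above all control lines, whereas PWS line 3 was below control line 2. Rfx6 had a log2 difference of 0.16 (SE 0.08, limma adjusted p = 0.513), the highest of the 10, with an interval from 0.980- to 1.27-fold.

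**Figure D3:**
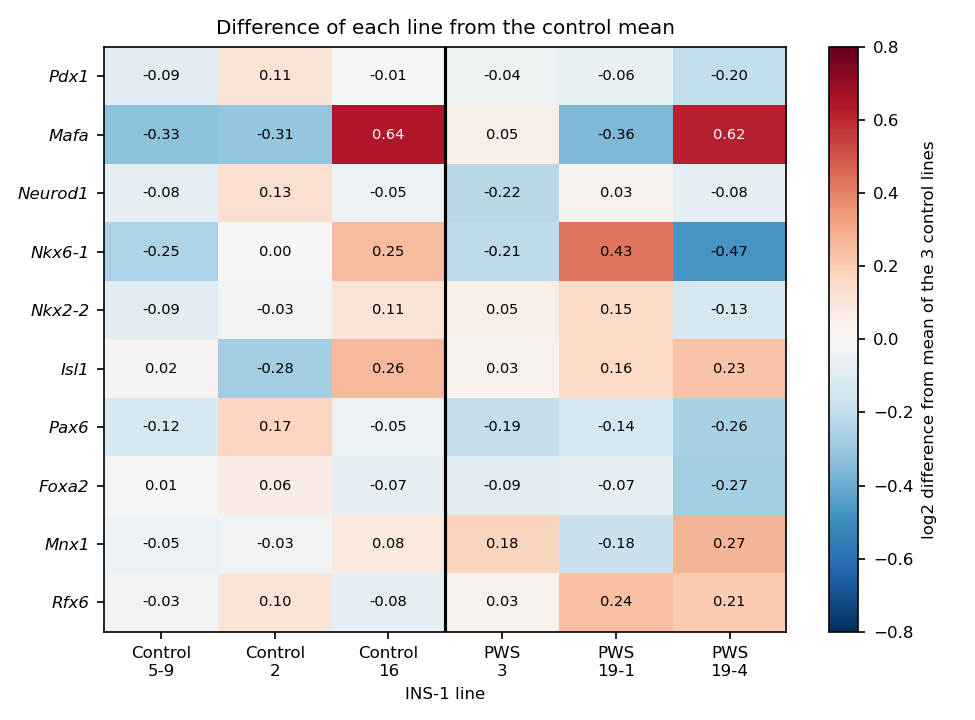
Difference of each line (columns, 3 control then 3 PWS lines) from the mean of the 3 control lines for each factor (rows), on the log2 scale of normalized count + 1; red is higher and blue lower. Lines 19-1 and 19-4 have opposite signs for Mafa, at -0.36 and 0.62, and for Nkx6-1, at 0.43 and -0.47.

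The factors were unequal in how much they varied between lines of the same group. The spread within groups (SD of log2 values) was 0.526 for Mafa and 0.374 for Nkx6-1, larger than for 98.4% and 96.0% of the 11722 tested genes whose mean was 100 normalized counts or more. Isl1 followed with 0.205. Foxa2 and Pdx1 varied least, with 0.0897 and 0.0954, below the median of 0.122 over those genes. Between the subclones 19-1 and 19-4, Nkx6-1 was 1.87-fold higher in 19-1 (95% interval 1.72 to 2.04, from 1336 and 939 reads), and Mafa was 1.98-fold higher in 19-4 (1.63 to 2.41, from 145 and 377 reads). Mnx1 was 1.36-fold higher in 19-4 (1.18 to 1.58). These intervals are exact binomial and cover counting error only, and with 1 library per subclone they compare libraries. For Rfx6 the interval of the ratio (19-1 over 19-4), 0.989 to 1.06, included 1. Line 19-4 had the lowest level of 5 of the 10 factors (Pdx1, Nkx6-1, Nkx2-2, Pax6 and Foxa2), where it was the lowest line for 21.5% of those 11722 genes. Control line 2 had the highest level of 4 of the 10 (25.2% of the same genes). In line 19-4 the alpha-cell hormone Gcg was also at its highest, with 110 reads against 0 to 20 in the other 5 lines, and the summed markers of other cell types were 328 there, against 213 to 233 in control lines and 205 and 230 in the other PWS lines. The part of these markers in the levels of the factors was not tested.

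The partners with which the factors bind DNA were taken from a list of 21 genes, 18 of which were tested. None of the 18 differed at an adjusted p of 0.05 in limma, edgeR or DESeq2, and 4 had an unadjusted p under 0.05 in each of the 3, all of them higher on average in PWS lines, against 11.3%, 11.4% and 10.4% of all tested genes (6% higher in limma). In limma these were Crebbp, a histone acetyltransferase (log2 fold change 0.33, standard error 0.10, adjusted p = 0.299), Rfx3 (0.24), the chromatin remodeller Smarca2 (0.22) and Ldb1, the adaptor of Isl1 (0.19). The groups did not overlap for 5 of the 18 (17.4% of all tested genes), with Crebbp, Smarca2 and Ldb1 higher and Ssbp2 (-0.20) and Meis1 (-0.27) lower in PWS lines. The list ran from Meis1, a homeodomain partner (-0.27), to Bhlha15 (0.42), and its median was 0.08 with 14 genes higher and 4 lower on average. The E proteins Tcf3 and Tcf12, the dimer partners of Neurod1, had log2 fold changes of 0.06 and 0.01, with intervals from -0.16 to 0.27 and from -0.19 to 0.22. Tcf4, a further E protein, was listed with no read in any line, as was Meis2.

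Among 36 other transcription factors of islet development and function, 23 were tested and none differed at an adjusted p of 0.05 in limma, edgeR or DESeq2. In limma, 4 had an unadjusted p under 0.05, as did 4 in edgeR and 3 in DESeq2 (11.3%, 11.4% and 10.4% of all tested genes). The 4 in limma were all higher on average in PWS lines, against 6% of all tested genes. At an adjusted p of 0.1, DESeq2 called 1 of the 23 (2.37% of all genes), which was Foxo1. They were Foxo1, the forkhead factor inhibited by insulin signalling, with 387 ± 38.3 (SD, n = 3) normalized counts in control and 559 ± 121 (SD, n = 3) in PWS lines (log2 fold change 0.51, adjusted p = 0.320 in limma), Tcf7l2 (0.75), Gata4 (0.31) and Myt1 (0.18). Tcf7l2 was the upper end of the list and Pax4 (-0.78, adjusted p = 0.628) the lower. Both were low, with means of at most 17.1 normalized counts in either group. The list had a median of 0.08. Hnf4a, a nuclear receptor mutated in monogenic diabetes, had a log2 fold change of 0.08 (interval -0.11 to 0.28). Neurog3, the factor of endocrine progenitors, and Irx1 and Irx2, factors of alpha cells, had no read.

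Relatives of the 10 factors in the same gene families were partly silent. Of 32 relatives, 16 were tested and 15 had at most 3 reads in every line, among them Isl2, Nkx6-2, Nkx6-3, Nkx2-1 and Neurod6. The family of Neurod1 was represented by Neurod2, with 520 ± 43.9 (SD, n = 3) normalized counts in control and 588 ± 38.2 (SD, n = 3) in PWS lines, and Neurod4 (78.4 and 79.0), and that of Foxa2 by Foxa3 (256 and 281) and Foxa1 (46.6 and 46.0). Pax5 had 61.6 and 62.0, and Lhx2, a LIM homeodomain relative of Isl1, had 88.9 and 86.6. None of the 16 differed at an adjusted p of 0.05 in limma, edgeR or DESeq2, and in limma and edgeR 2 had an unadjusted p under 0.05 (3 in DESeq2), against 11.3%, 11.4% and 10.4% of all tested genes in limma, edgeR and DESeq2. In limma these were Rfx3 and Rfx7, relatives of Rfx6, and Rfx7 was the 1 relative that DESeq2 called at an adjusted p of 0.1 (2.37% of all tested genes). Rfx7 was at the upper end, with 426 ± 27.1 (SD, n = 3) and 611 ± 118 (SD, n = 3) normalized counts (log2 fold change 0.50, adjusted p = 0.305 in limma), and Rfx8 at the lower (-0.93, adjusted p = 0.545).

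The genes on which the factors act are the last group. Of 19 such genes, 17 were tested, of which 13 averaged lower and 4 higher in the PWS group (50.7% and 49.3% of all tested genes), and the median log2 fold change was -0.17. None differed at an adjusted p of 0.05 in limma, edgeR or DESeq2, but 6 had an unadjusted p under 0.05 in each of the 3, 5 of them lower in limma, against 11.3% of all tested genes at this p and 5.35% lower. At an adjusted p of 0.1, DESeq2 called 1 of the 17 (2.37% of all tested genes), Iapp. The 5 were Ins1 (log2 fold change -0.57, interval -1.07 to -0.08), Ins2 (-0.99, -1.95 to -0.03), Iapp (-0.64, -1.15 to -0.12), the granule protein Sytl4 (-0.54, -1.02 to -0.07) and the ER oxidase Ero1b (-0.51, -0.98 to -0.04). The other was the receptor Glp1r (0.29), which was also the upper end of the list, while the lower end was Ucn3 (-1.74, interval -4.13 to 0.65), a maturity marker with 1.02 to 44.6 normalized counts. Genes of glucose sensing and secretion that the same factors are known to activate gave smaller differences, with -0.14 for Slc2a2, 0.05 for Abcc8, -0.13 for the zinc transporter Slc30a8 and -0.02 for Pcsk1, of which only 12.7% of the reads were counted in the stricter table. Slc2a2 and Abcc8 had intervals within -0.38 to 0.27. Line 19-4, the line with the highest Gcg, had the lowest level of 11 of the 17 genes. Without it, 10 genes averaged lower and 7 higher, the median was -0.06, and Iapp (lower) and Glp1r (higher) were left with an unadjusted p under 0.05 in limma. The part of the Gcg level in this was not tested.

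**Figure D4:**
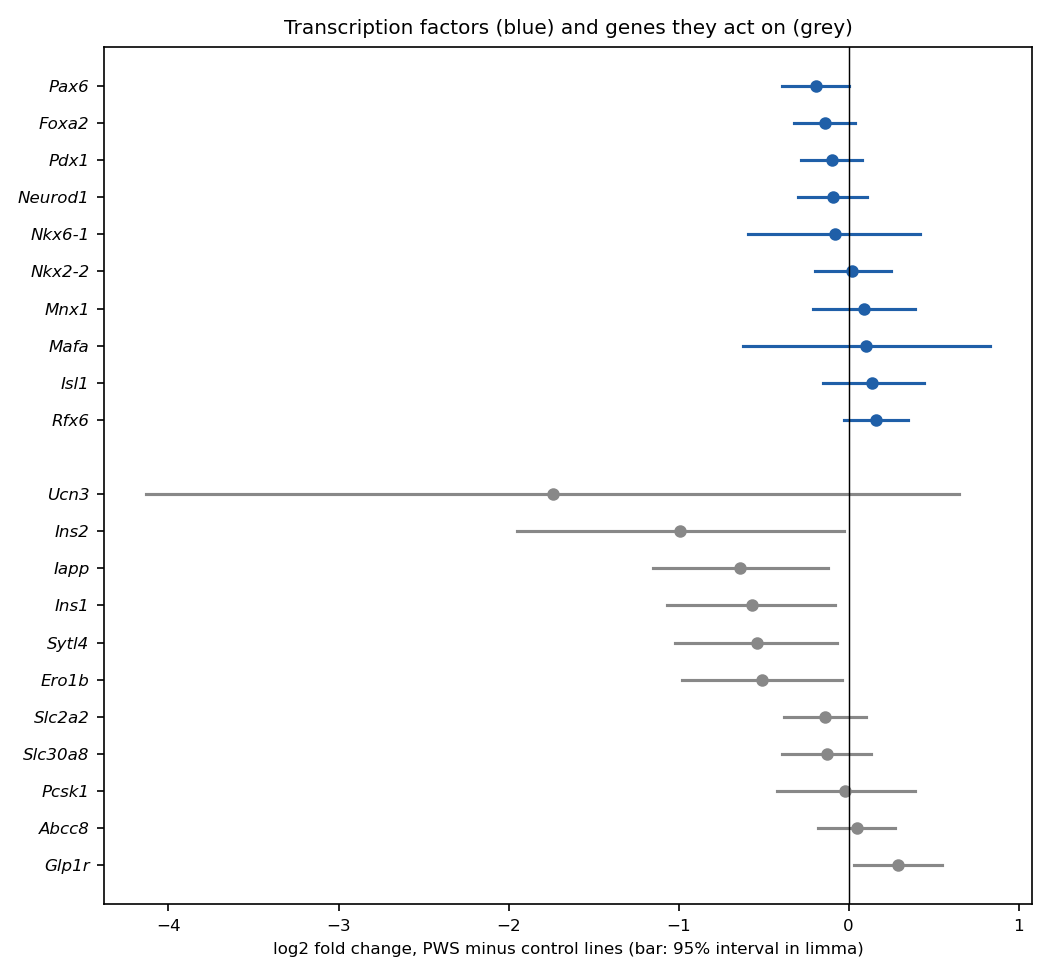
Log2 fold change (x axis, PWS minus control lines) with its 95% interval in limma for the 10 transcription factors (blue) and 11 genes they act on that are named in the text (grey). The factors lie between -0.19 and 0.16, while Ins1, Ins2 and Iapp lie between -0.99 and -0.57.

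Side by side with the insulin genes, 8 of the 10 factors had an interval that lay wholly above the Ins1 log2 fold change of -0.57. The other two were Mafa and Nkx6-1, whose lower limits were -0.62 and -0.59. The difference between a factor and Ins1 was not itself tested, and the interval of Ins1 was wide. With single lines left out the Ins1 value ran from -0.80 without PWS line 3 to -0.36 without line 19-4, and 10 and 7 of the factor intervals fitted on all 6 lines, respectively, lay above these values. Ins1 had 247273, 175597 and 133488 normalized counts in PWS lines 3, 19-1 and 19-4, and 256090 to 282807 in control lines. Between the highest and the lowest of the 3 PWS lines Ins1 differed 1.85-fold, and the factors from 1.08-fold (Pax6) to 1.36-fold (Mnx1), 1.87-fold (Nkx6-1) and 1.98-fold (Mafa). Pdx1, at 1.13-fold, had the same order of the 3 lines as Ins1, a relation that 3 lines cannot test.

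**Figure D5:**
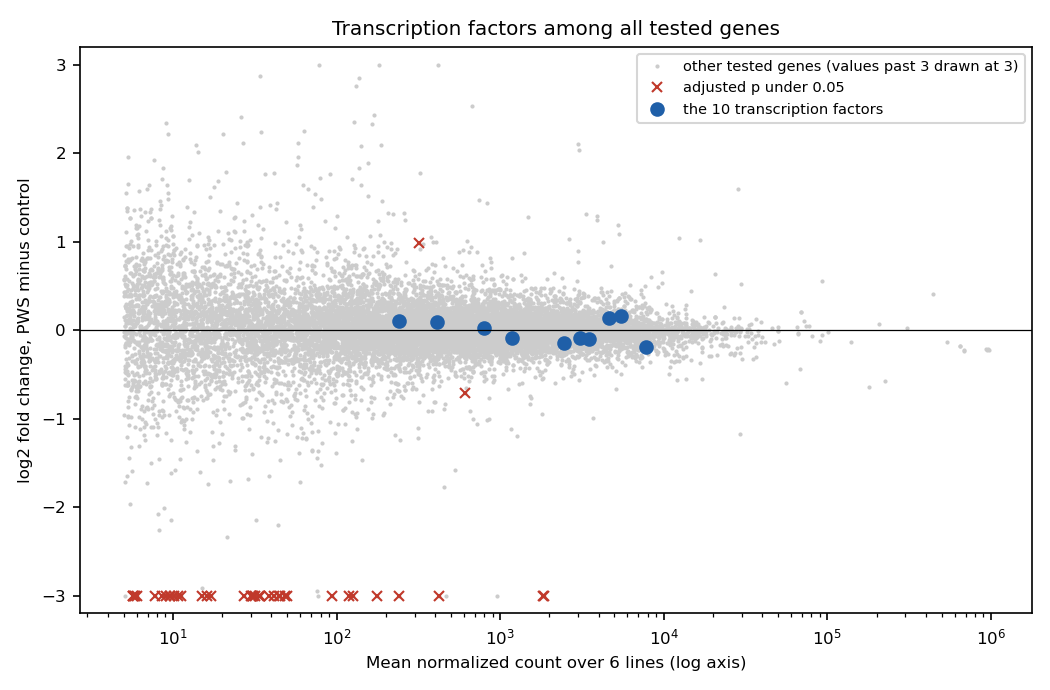
Log2 fold change (y axis, PWS minus control lines; values past 3 drawn at 3) against the mean normalized count over the 6 lines (x axis, log scale) for the 15579 tested genes. The 10 transcription factors (blue) lie within the dense band of genes around 0, apart from the 40 genes at an adjusted p under 0.05 (red crosses).

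The genes whose levels over the 6 lines were most like those of 3 insulin activators were looked up among tested genes with a symbol and a mean of 100 normalized counts or more, by the Pearson correlation of log2 values. For Pdx1 they were Chst2 (r = 0.995), Acap3 (0.989) and Zdhhc1 (0.989). For Neurod1 they were Zfp955a (0.992), Erbin (0.991) and Plekha8 (0.985), and for Mafa they were Tlcd1 (0.975), Mettl7a (0.972) and Wsb2 (0.967). These are descriptions over 6 related lines that share the size factors of their libraries, and the highest of many correlations over 6 points lie near 1. Chst2 covered a wider range than Pdx1, from 61.8 to 163 normalized counts, and none of these 9 genes passed an adjusted p of 0.05 in limma.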

How the data were processed

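Total RNA of 6 INS-1 lines (3 control, 3 PWS) was sequenced as rRNA-depleted libraries, 1 per line, and every line was assigned to its group by its title. The authors trimmed reads with cutadapt, aligned them to the rat genome of Ensembl release 98, extended by the transgenes, with STAR 2.7.0e, and obtained gene counts from HTSeq 0.11.2 (nonunique all or nonunique none) or RSEM 1.3.1. The values they deposited are a signal: counts divided by the size factors of DESeq2. The deposited fold changes and p-values of the authors were not used. Dividing each column of an HTSeq table by its lowest value above 0 gave whole numbers for 100% of values (tolerance 0.0001). These recovered reads entered the count tests, in which edgeR called 32 and DESeq2 228 genes. A read that aligned to several places or lay on overlapping genes was counted at each under nonunique all counting and dropped under nonunique none.

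The groups were compared in the nonunique all table with limma 3.58.1 (lmFit and eBayes with trend, R 4.3.3) on log2(normalized count + 1) for the 15579 genes whose mean was 5 or more, with Benjamini-Hochberg adjustment over all of them and a threshold of 0.05. Fold changes are on that scale and understate those of low genes. The alternatives were edgeR 4.0.16 (quasi-likelihood test), DESeq2 1.42.0, TMM scaling, other pseudocounts and filters, limma without trend, the other 2 tables, each line left out, averaging of lines 19-1 and 19-4, a block for the replicate number, and a threshold of 0.1. The tests were tested on simulated data first. Every factor was named, and of the other gene lists the ends of the fold changes, the genes past the threshold and the family relatives. The members and gene lists were chosen with earlier results of these data known. Other genes named with values were chosen after their values were seen. Promoter sequences are those of RefSeq for assembly GRCr8, which was not the assembly of the alignment. Protein sequences were not used here, and some genes of the lists are counted but not reported by name.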

Additional observations from a re-analysis of the deposited data

How the results depend on the processing

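In each of the 18 other fits, and at a threshold of 0.1 in limma, 0 of the 10 factors passed the threshold, and so did 0 genes of the partner, islet factor and target lists. At a threshold of 0.1, DESeq2 called Iapp (adjusted p = 0.0651), Foxo1 (0.0963) and the relative Rfx7 (0.0727). Over all tested genes the count of 40 moved by more than 1.5 times to 228 with DESeq2, 16 in the nonunique none table, 12 in the RSEM table and 9 among genes with a mean of at least 50; the cause was not tested. The median log2 fold change of the factors (-0.03) ran from -0.10 without control line 5-9 to 0.06 without control line 16. With each line left out in turn, 3 factors changed sign, with log2 fold changes from -0.16 to 0.42 for Mafa, -0.34 to 0.11 for Nkx6-1 and -0.04 to 0.10 for Nkx2-2, and the difference fell to 0.00 for Isl1 without control line 2 and for Mnx1 without PWS line 19-4, and was 0.27 for Isl1 without control line 16 and 0.22 for Mnx1 without PWS line 19-1. The other 5 kept their sign in all 18 other fits, but leaving out 1 line moved 4 of them by more than 1.5 times, to -0.05 for Pdx1 without control line 2 or PWS line 19-4, -0.03 for Neurod1 without control line 2 or PWS line 3 and -0.15 without PWS line 19-1, -0.11 for Pax6 without control line 2 and -0.08 for Foxa2 without PWS line 19-4. Without PWS line 19-4, the partners, islet factors and relatives with an unadjusted p under 0.05 in limma went from 4, 4 and 2 to 3, 2 and 1. Without control line 5-9, Pax6 had an unadjusted p under 0.05 in limma, as did Rfx6 without control line 2 or PWS line 3 and Isl1 without control line 16. The replicate numbers did not pair the lines, since the deviations of same-numbered lines had correlations of 0.00345, 0.0467 and 0.00513. With the replicate number as a block, 0 of the 10 factors and 36 of all genes passed, and Pax6 had an unadjusted p under 0.05. With 3 lines a group, a difference the size of that of Ins1 in a factor as variable as Mafa is within the error.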

Other observations

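Markers of other islet cells were low in these lines and highest in PWS line 19-4. The glucagon gene Gcg had 110 reads in line 19-4, between 11 and 20 in 4 other lines and 0 in control line 2. Hhex, a factor of delta cells, had 15 reads in line 19-4 and between 1 and 3 in the others. The transthyretin gene Ttr, which alpha cells also express, had at most 2 reads in any line.

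The counting changed the apparent level of some factors more than that of others. The RSEM value was 0.807 of the nonunique all value in the median tested gene and 0.824 for Pdx1, but 0.644 for Nkx2-2 and 0.584 for Mnx1. The direction of the difference between the groups was the same in both tables for all 10 factors.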
